A study of Arabidopsis thaliana with 16 samples.

Results

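The poly(A)+ and the poly(A)- RNA of phosphate-sufficient shoots were compared in 4 libraries, 2 of each fraction, out of the 16 libraries of the series. They were chosen by their labels alone: P+ medium, shoot tissue, and either fraction. The plants were 10-day-old wild-type Col-0 seedlings of Arabidopsis thaliana on half-strength MS agar with 1.25 mM KH2PO4, 1% sucrose and 1.2% agar under 16 h of light. No transgene or mutant allele was present. Oligo(dT) beads split the RNA into the bound poly(A)+ fraction and the unbound poly(A)- fraction. The sources differ on ribosomal RNA: the labels put its depletion before the split, for both fractions, whereas the methods of the study put it after the split and describe it for the poly(A)- fraction. The question asked of these libraries was which RNAs are recovered with a poly(A) tail, which without one, and which in both fractions.

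Most nuclear mRNAs are cleaved at the 3′ end and given a poly(A) tail, which protects the RNA and assists export and translation. Other transcripts mature without a lasting tail. They include RNAs made by RNA polymerase III such as the signal recognition particle RNA, which joins the ribosome to the membrane, small nucleolar RNAs, which guide the modification of ribosomal RNA, and the mRNAs of mitochondria, in which a short tail marks an RNA for decay. Oligo(dT) selection separates these kinds by their 3′ ends.

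Levels were deposited as FPKM, fragments per kilobase of transcript scaled to the size of the library, so a value is a share of its own library and not an amount of RNA. In bulk tissue, fewer cells of a type and less RNA per cell cannot be told apart. Light-harvesting transcripts defined the tissue in both fractions, with 50300 and 39500 FPKM in all in the poly(A)+ libraries and 45100 and 42000 FPKM in the poly(A)- libraries over 20 genes. The 10 root markers summed to 7.25 and 9.74 FPKM in poly(A)+ and to 11.6 and 5.6 FPKM in poly(A)-, and IRT1 and COBL9 were listed at 0 in all 4 libraries. The spacing of the lowest values gives what a single fragment is worth, which on a transcript with 1 kb of usable length came to 0.272 and 0.121 FPKM in the poly(A)+ libraries and to 2.86 and 2.24 FPKM in the poly(A)- libraries. This is an estimate of the fragments behind the FPKM values. It gives fewer fragments than the read totals listed in the study, and a wider gap between the fractions, and those totals were not used here. Features above 0 numbered 21305 and 22273 in poly(A)+ against 16726 and 17582 in poly(A)-. The log2 difference between replicates had a standard deviation of 0.521 in poly(A)+ and 1.31 in poly(A)-. The labels give replicate 1 of both fractions a strand-specific read setting and replicate 2 an unstranded one, so a transcript and the gene opposite it cannot be told apart in replicate 2.

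The test took in 19444 features whose FPKM averaged 1 or more across the 8 shoot libraries. Of these, 2038 were higher in poly(A)+ (10.5%) and 648 were higher in poly(A)- (3.33%) by limma on log2(FPKM + 1), at an adjusted p under 0.05 and a fold of 2 or more. The features tested comprised 18295 coding genes, 324 annotated lncRNAs (long non-coding RNAs of TAIR10) and 825 lncRNAs that the authors assembled from these reads and named by XLOC locus. Fold changes are given on this log2(FPKM + 1) scale, as poly(A)+ minus poly(A)-, which understates differences of low genes. The median over all features was 0.408. When the libraries were rescaled to a common median ratio, the median was 0.231 and the calls were 1492 (7.67%) and 957 (4.92%), so that 60.9% instead of 75.9% of all calls lay on the poly(A)+ side. Within replicate 1 the median was 0.378 and within replicate 2 it was 0.338. The counts rest on both poly(A)+ libraries: without replicate 1 of that fraction the fit called 25 and 27 features, and without replicate 2 it called 19 and 22, with no feature of the 2686 turning its direction. A filter added after seeing the data, at a mean level worth 10 fragments or more, kept 8122 features, of which 1186 (14.6%) were higher in poly(A)+ and 680 (8.37%) were higher in poly(A)-.

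**Figure D1:**
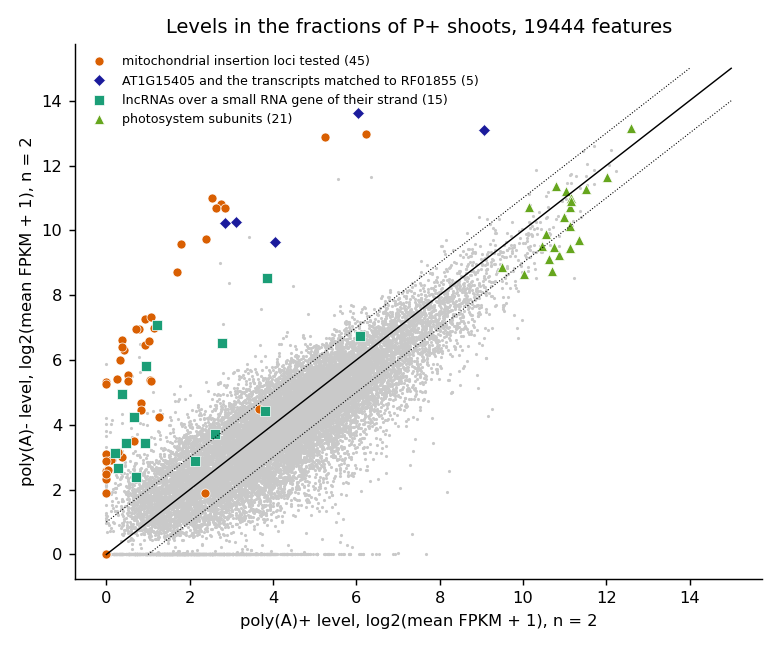
Mean level of each of 19444 features in poly(A)+ (horizontal) and poly(A)- (vertical) libraries of P+ shoots, as log2(mean FPKM + 1) with 2 libraries a fraction. The solid line marks equal levels and the dotted lines a difference of 1 on this scale. AT1G15405, the transcripts matched to the signal recognition particle RNA and most mitochondrial insertion loci lie far above the lines. The points on the horizontal axis are features listed at 0 in both poly(A)- libraries.

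AT1G15405, a single-exon annotated lncRNA of 292 bases, held the highest listed poly(A)- FPKM of any lncRNA named here. That length is too short for the worth of a fragment to be given, so the size of its FPKM is uncertain. It had 70.9 and 58.2 FPKM in the poly(A)+ libraries and 10662 and 14575 FPKM in the poly(A)- libraries. The fractions did not overlap, and the log2 difference was -7.58 ± 0.34 (SE, n = 2 each, limma adjusted p = 0.000317). The gene lies on the minus strand of chromosome 1 (chr1:5297875-5298166, TAIR10), and the annotation lists it only as other RNA. Its whole sequence is shown because the letters relate it to the RNAs that follow. Capitals mark positions 166 to 196, a run of 31 bases that recurs without a mismatch in the first exon of XLOC_020382.
AT1G15405: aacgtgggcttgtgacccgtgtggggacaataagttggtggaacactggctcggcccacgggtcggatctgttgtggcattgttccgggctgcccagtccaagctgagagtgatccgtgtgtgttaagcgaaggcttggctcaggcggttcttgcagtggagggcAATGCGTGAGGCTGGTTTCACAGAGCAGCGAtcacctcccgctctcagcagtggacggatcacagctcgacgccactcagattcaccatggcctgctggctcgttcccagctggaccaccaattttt

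All 4 assembled transcripts that the authors' coordinate file matches to the Rfam family RF01855, the plant signal recognition particle RNA, were higher in poly(A)-. This is 4 of 4 against 3.27% of all assembled lncRNAs tested. The 4 include 2 overlapping transcripts of 1 locus, XLOC_020382. XLOC_022857, on the minus strand of chromosome 4 (chr4:1318876-1319180), had 554 and 507 FPKM in poly(A)+ against 9168 and 8250 FPKM in poly(A)-. Its log2 difference was -4.03 ± 0.51 (SE, limma adjusted p = 0.00845). Its 305 bases also leave too little length for the worth of a fragment to be given. Its stretch lies opposite AT7SL-1, the annotated gene of a signal recognition particle RNA. XLOC_025632 on chromosome 5 had 6.98 and 5.40 FPKM in poly(A)+ against 1297 and 1098 FPKM in poly(A)-, a log2 difference of -7.38 ± 0.56. The 2 transcripts of XLOC_020382 on chromosome 4 had 11.2 and 4.21 FPKM in poly(A)+ against 889 and 1534 FPKM in poly(A)-, and 17.7 and 13.5 FPKM in poly(A)+ against 696 and 882 FPKM in poly(A)-. In every one of the 4, both poly(A)- libraries lay above both poly(A)+ libraries, and XLOC_022857 kept the largest part in poly(A)+.

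Aligned end to end, the matched units of these 4 transcripts were 77.2 to 78.1% identical to AT1G15405. The longest run of letters shared by 7 windows of 150 bases, before AT1G15405 and before the transcripts matched to the signal recognition particle, U2 and U3 RNAs, was TCCCACATCG, with XLOC_025632 left out because its unit is not its first exon. These are the letters of the upstream sequence element, a known promoter element of plant genes of small nuclear RNAs. They stand before AT1G15405 and before the units of the 4 matched transcripts, XLOC_025632 included, and are followed after 26 or 27 bases by TATATA. The 2 transcripts of XLOC_020382 share the same site, and their windows nearly coincide. The stretches from that motif to the base before the unit are shown because they are alike in spacing, with the motif in capitals, in the direction of transcription (TAIR10).
AT1G15405, chr1:5298167-5298243, minus strand: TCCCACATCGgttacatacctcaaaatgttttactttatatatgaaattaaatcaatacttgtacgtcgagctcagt
XLOC_022857, chr4:1319181-1319250, minus strand: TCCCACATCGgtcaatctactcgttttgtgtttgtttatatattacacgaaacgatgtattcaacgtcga
XLOC_020382, chr4:1472661-1472730, plus strand: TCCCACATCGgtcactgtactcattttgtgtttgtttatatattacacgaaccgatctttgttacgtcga
XLOC_025632, chr5:3014863-3014928, plus strand: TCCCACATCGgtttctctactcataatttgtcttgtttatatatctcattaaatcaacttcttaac

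The 3′ ends are shown by their last 45 bases, where RNA polymerase III is known to stop at a run of T in the DNA. Capitals mark a T run, of 5 bases in AT1G15405 and of 7 bases in each of the others. No such run stood at the end of the matched exons of XLOC_020382.
AT1G15405, chr1:5297875-5297919, minus strand: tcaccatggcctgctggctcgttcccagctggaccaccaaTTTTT
XLOC_022857, chr4:1318876-1318920, minus strand: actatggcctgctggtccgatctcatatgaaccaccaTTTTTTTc
XLOC_025632, chr5:3015193-3015237, plus strand: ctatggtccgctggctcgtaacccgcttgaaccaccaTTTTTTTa

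The motif TCCCACATCG, searched on the transcribed strand in the 150 bases before each start, stood before 22 of 28360 features with a position (0.0776%). Of these, 16 were tested, 1 was higher in poly(A)+ (6.25% against 10.5% of all features) and 5 were higher in poly(A)- (31.2% against 3.33%), with a median of -0.78 against 0.408 over all features. The 5 were AT1G15405, both XLOC_020382 transcripts, XLOC_022857 and AT3G63052. All but AT3G63052 gave windows in which the motif was found, as did XLOC_031720, XLOC_031719 and XLOC_028844. The shares and the median thus depend on how the motif was chosen. Outside those windows, AT3G63052 was called in poly(A)- and AT2G20410 in poly(A)+. AT3G63052, a coding gene of unknown function, was listed at 0 in both poly(A)+ libraries and had 9.13 and 8.66 FPKM in poly(A)-. Its 398 bases leave too little length for the worth of a fragment to be given. XLOC_031720, matched to the plant U3 small nucleolar RNA, had 5.40 and 6.43 FPKM in poly(A)+ against 192 and 82.5 FPKM in poly(A)-, and its log2 difference of -4.20 did not pass the test (limma adjusted p = 0.0652). XLOC_028844, matched to the U2 spliceosomal RNA, was listed at 0 in replicate 1 of both fractions and had 24.2 FPKM in poly(A)+ replicate 2 against 376 FPKM in poly(A)- replicate 2. The 22 features took 0.0278 and 0.0296% of all FPKM weighted by length in poly(A)+ against 0.529 and 0.632% in poly(A)-. The motif was found on members of this group, so their match, and the shares and the median above, are a description only.

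Transcripts that overlap small nucleolar RNA genes formed the next group. Of 11 annotated lncRNAs tested that overlap a ribosomal, transfer, small nucleolar or small nuclear RNA gene, 0 were higher in poly(A)+ and 4 were higher in poly(A)-, where 2.16% of all annotated lncRNAs were called in that direction. Their median was -1.27, against 1.00 over all annotated lncRNAs. AT1G15002 had 2.16 and 0.509 FPKM in poly(A)+ against 116 and 154 FPKM in poly(A)-. AT2G46192, which overlaps 5 small nucleolar RNA genes, had 5.23 and 6.37 FPKM in poly(A)+ against 99.5 and 84.4 FPKM in poly(A)-, a log2 difference of -3.77 ± 0.35 (SE, limma adjusted p = 0.00405). The other called members were AT3G55485 and AT1G16635, the second at 0 and 0.327 FPKM in poly(A)+ against 8.65 and 6.82 FPKM in poly(A)-. In all 4 the fractions did not overlap.

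Assembled lncRNAs over small RNA genes went the same way in 2 of 6 cases, with 0 called in poly(A)+. Over all assembled lncRNAs, 3.27% were higher in poly(A)- and 7.64% in poly(A)+. XLOC_005491, which the coordinate file matches to AtsnoR59a and AtsnoR59b, had 0.592 and 0 FPKM in poly(A)+ against 31.7 and 28.7 FPKM in poly(A)-. XLOC_025979, matched to AtsnoR106, had 18.9 and 7.91 FPKM in poly(A)+ against 466 and 273 FPKM in poly(A)-. At a mean level worth 10 fragments or more, 1 of these 6 was kept, and it was called in poly(A)-. Of 15 assembled lncRNAs matched to a known small or structured RNA other than a microRNA, 1 was higher in poly(A)+, 6 were higher in poly(A)- and 8 were not called. The 1 was the XLOC_029041 transcript matched to SNORD34, at 11 and 6.87 FPKM in poly(A)+ and listed at 0 in both poly(A)- libraries (limma adjusted p = 0.0378). Coding genes over a small RNA gene were spread over both sides, 12 of 117 higher in poly(A)+ and 6 of 117 higher in poly(A)-, where 10.5% and 3.36% of all coding genes were called. The widest difference among them was that of AT2G35750, at 72.1 and 88.8 FPKM in poly(A)+ against 2678 and 3775 FPKM in poly(A)-. Its 462 bases overlap the small nucleolar RNA genes AT2G08770 and AT2G35747.

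Box C (TGATGA) near the 5′ end and box D (CTGA) near the 3′ end are the marks of the C/D class, which directs ribose methylation. Of 15 small nucleolar RNA genes that overlap 8 of the transcripts called in poly(A)-, picked after their values were seen, 3 held both boxes (20.0%), 4 held box D alone and 8 held neither, while 120 of all 287 annotated small nucleolar RNAs (41.8%) held both by the same search. The 3 sequences given show both cases with a box: AT1G05247 and AT1G05917 hold both, and AT2G35747 holds box D alone. Capitals mark the boxes found near the ends.
AT1G05247 within AT1G16635, chr1:5686093-5686179, minus strand: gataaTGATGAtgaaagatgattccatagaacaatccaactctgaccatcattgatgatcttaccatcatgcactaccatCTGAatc
AT1G05917 within XLOC_005491, chr1:8756361-8756459, minus strand: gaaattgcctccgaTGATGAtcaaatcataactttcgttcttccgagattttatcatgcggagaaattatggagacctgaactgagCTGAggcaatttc
AT2G35747 within AT2G35750, chr2:15029832-15029911, minus strand: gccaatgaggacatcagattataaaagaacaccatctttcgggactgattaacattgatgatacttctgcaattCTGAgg

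The mitochondrial insertion on chromosome 2, a nuclear copy of much of the mitochondrial genome, led the coding genes on the poly(A)- side. Of its 67 loci, between 3220739 and 3586278, 45 were tested, 0 were higher in poly(A)+ and 31 were higher in poly(A)- (68.9% against 3.36% of all coding genes). The median difference was -5.03. Reads of the insertion and of the mitochondrial genome itself cannot be told apart where the letters are the same, and the authors removed organelle reads before they estimated FPKM. The insertion took 0.0159 and 0.0113% of all FPKM weighted by length in poly(A)+ against 2.13 and 2.00% in poly(A)-.

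Genes of the ATP synthase were prominent there. AT2G07698, annotated as the alpha subunit, had 6.54 and 4.85 FPKM in poly(A)+ against 1818 and 1761 FPKM in poly(A)-, a log2 difference of -8.07 ± 0.18 (SE, limma adjusted p = 1.96e-05). AT2G07671, a subunit c gene, had 38.6 and 35.4 FPKM in poly(A)+ against 7033 and 8115 FPKM in poly(A)-. AT2G07741, subunit a, had 6.96 and 5.34 FPKM in poly(A)+ against 1863 and 1466 FPKM in poly(A)-, and AT2G07707, subunit 8, had 6.35 and 3.28 FPKM in poly(A)+ against 2670 and 1398 FPKM in poly(A)-. These subunits form the rotor, stator and catalytic parts of the enzyme that makes ATP.

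Respiratory chain genes followed the same order. AT2G07727, cytochrome b of complex III, had 5.32 and 5.12 FPKM in poly(A)+ against 1790 and 1537 FPKM in poly(A)-, with a log2 difference of -8.06 ± 0.19. AT2G07687, subunit III of cytochrome c oxidase, had 5.26 and 3.22 FPKM in poly(A)+ against 969 and 744 FPKM in poly(A)-. AT2G07725, a ribosomal protein of the L5 family, had 2.81 and 2.11 FPKM in poly(A)+ against 725 and 807 FPKM in poly(A)-, and AT2G07708, of unknown function, had 2.17 and 2.36 FPKM in poly(A)+ against 413 and 419 FPKM in poly(A)-. In each of these 8 genes both poly(A)- libraries lay far above both poly(A)+ libraries.

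Members of the insertion differed by how much of them the mitochondrial genome holds. Of the 36 tested loci with at least 90% of their 50-base windows in the mitochondrial genome, 28 were higher in poly(A)-, with a median of -5.17. Of the 7 with 10 to 90%, 3 were higher in poly(A)-. Neither of the 2 loci with under 10% was called: MCM5, a subunit of the replicative helicase, had 11.7 and 11.6 FPKM in poly(A)+ against 23.7 and 19.3 FPKM in poly(A)-, and ABCC13, a transporter, had 4.03 and 4.26 FPKM in poly(A)+ against 1.66 and 3.86 FPKM in poly(A)-. The assembled lncRNA XLOC_011336 also lies in the insertion (chr2:3271893-3273731, minus strand) and had 1.01 and 0.483 FPKM in poly(A)+ against 112 and 65.4 FPKM in poly(A)-.

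Outside the list of insertion loci, the 12 coding genes with the most negative differences, picked after their values were seen, were of mixed kinds. AT2G01008 had 5.69 and 5.64 FPKM in poly(A)+ against 425 and 584 FPKM in poly(A)-, and ends 533 bases before the 18S ribosomal RNA gene AT2G01010. AT3G41762, at 0 and 1.52 FPKM in poly(A)+ against 32.3 and 65.8 FPKM in poly(A)-, lies 812 bases from the 18S gene AT3G41768. In these genes 67.2% and 64.4% of the 50-base windows recur elsewhere in the nuclear chromosomes. AT2G07599, which lies within the insertion by position but outside the identifiers that define the list, had 0.618 and 0.848 FPKM in poly(A)+ against 78.7 and 55.8 FPKM in poly(A)-, with 64.8% of its windows in the mitochondrial genome. AT2G31141 is of unknown function and had no such match, with 6.15 and 13.4 FPKM in poly(A)+ against 689 and 1069 FPKM in poly(A)-. XTH11, a cell wall xyloglucan enzyme, also had none, with 1.33 and 0.983 FPKM in poly(A)+ against 19.1 and 22.2 FPKM in poly(A)-.

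**Figure D2:**
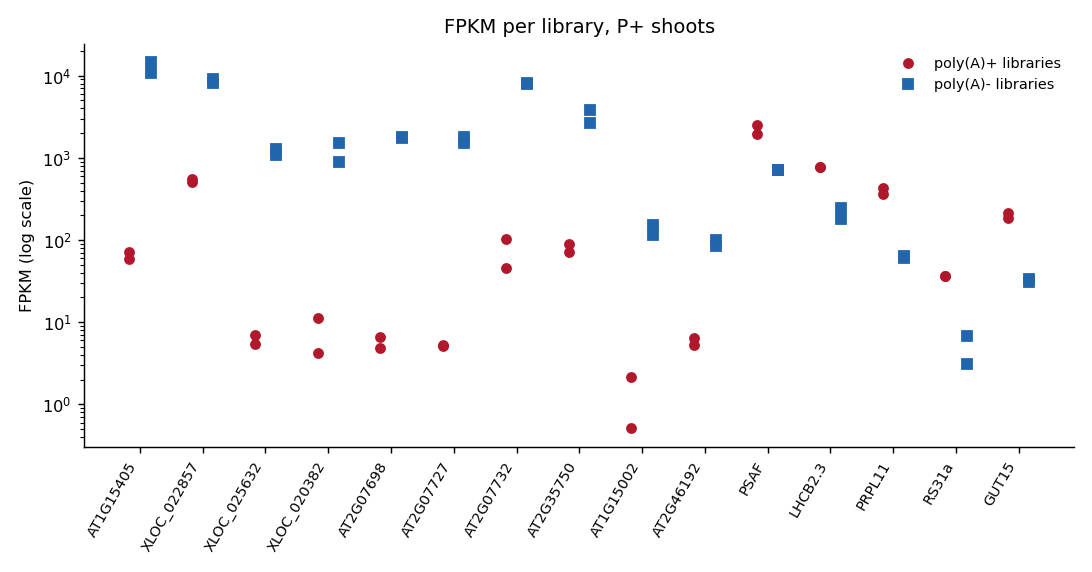
FPKM of 15 features in each library of P+ shoots on a log scale, with the 2 poly(A)+ libraries (circles) left of the 2 poly(A)- libraries (squares). The 10 features on the left, AT1G15405 to AT2G46192, lie higher in poly(A)-, while the 5 on the right, PSAF to GUT15, lie higher in poly(A)+, with no overlap in any.

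Transcript length went with the fraction across coding genes. In the shortest 10% of genes, 140 to 922 bases, the median difference was 1.22, and 22.2% of genes were higher in poly(A)+ against 0.659% higher in poly(A)-. In the longest 10%, 3142 to 16593 bases, the median was -0.504, with 1.16% higher in poly(A)+ and 15.5% higher in poly(A)-. The medians fell at every step between these ends. Among genes averaging 50 FPKM or more in these 4 libraries the medians ran between 0.965 and -0.559 between the same ends. Coding genes higher in poly(A)+ had a median length of 1284 bases, those not called 1774 bases and those higher in poly(A)- 3086 bases. Genes listed at 0 in both poly(A)- libraries were 23.4% of the shortest bin and 0.385% of the longest, and the part of depth in the trend was not tested. Genes share libraries and are not replicates, so the trend is given without a test.

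**Figure D3:**
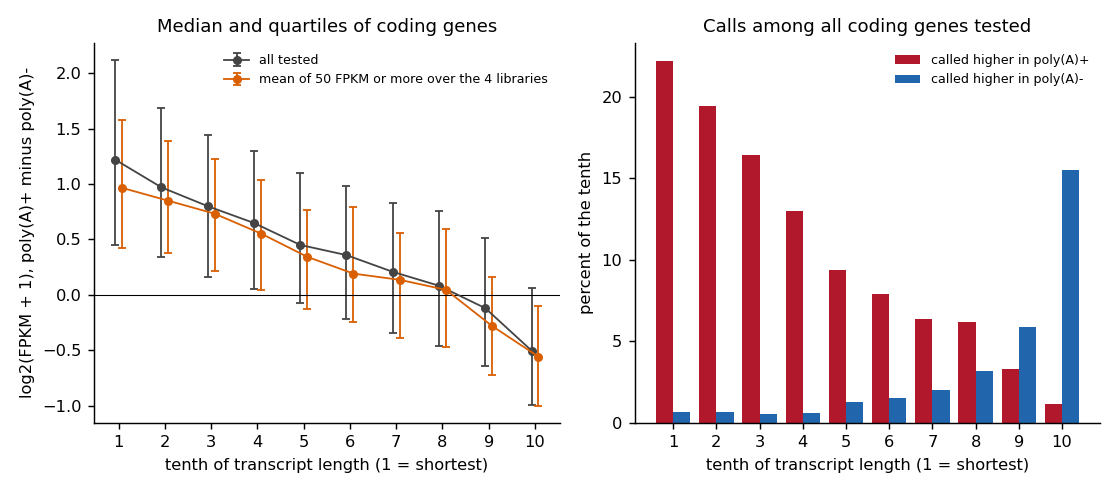
Left, median and quartiles of the log2(FPKM + 1) difference, poly(A)+ minus poly(A)-, in bins of 10% of the coding genes by transcript length, for all genes tested and for those with a mean of 50 FPKM or more. Right, percent of all coding genes tested in each bin that were called higher in either fraction. The median is 1.22 in the shortest bin and -0.504 in the longest.

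Giant genes stood at the poly(A)- end. Of the 20 longest coding genes tested, 8576 to 16593 bases, 0 were higher in poly(A)+ and 12 were higher in poly(A)-, against 3.36% of all coding genes, and in 19 both poly(A)- libraries lay above both poly(A)+ libraries. BIG, a protein of auxin transport, had 5.95 and 5.94 FPKM in poly(A)+ against 42.6 and 51.5 FPKM in poly(A)-, a log2 difference of -2.78 ± 0.27 (SE, limma adjusted p = 0.00469). SYD, a chromatin remodelling ATPase, had 8.73 and 11.1 FPKM in poly(A)+ against 50.8 and 51.0 FPKM in poly(A)-. The ubiquitin ligase UPL1 had 13.7 and 14 FPKM in poly(A)+ against 45.7 and 44.4 FPKM in poly(A)-, and SPI, a BEACH-domain protein, had 4.3 and 4.84 FPKM in poly(A)+ against 16.5 and 21.3 FPKM in poly(A)-. ATM, the kinase of DNA damage, was the one with overlapping libraries, at 2.69 and 3.69 FPKM in poly(A)+ and 3.06 and 5.69 FPKM in poly(A)-.

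A pair of protein families had negative medians as well. Of 81 tested disease resistance genes of the NBS-LRR class, a list added after values were seen, 0 were higher in poly(A)+. In poly(A)- 16 were higher (19.8% against 3.36% of all coding genes), with a median of -0.716. The median length of the list was 4001 bases. In the longest 10% of coding genes, 15.5% were higher in poly(A)- and the median was -0.504. RPP5, a receptor for downy mildew, had 70.3 and 66.3 FPKM in poly(A)+ against 170 and 183 FPKM in poly(A)-. RPP8 had 47.7 and 60.9 FPKM in poly(A)+ against 131 and 156 FPKM in poly(A)-, and SNC1 had 30.9 and 31.3 FPKM in poly(A)+ against 59.5 and 70.8 FPKM in poly(A)-. Genes of pentatricopeptide repeat proteins, which bind organelle RNAs, numbered 3 higher in poly(A)+ (1.25% against 10.5% of all coding genes) and 11 higher in poly(A)- (4.58% against 3.36%) of 240. Their median was -0.414, and 2 and 19 were called after rescaling. Their median length was 2244 bases. Among coding genes of 2179 to 2525 bases, 6.2% were higher in poly(A)+ and 3.18% in poly(A)-, with a median of 0.0816. NFD5, a member needed in the female gametophyte, had 6.46 and 5.59 FPKM in poly(A)+ against 38.6 and 35.1 FPKM in poly(A)-, a log2 difference of -2.43 ± 0.26. AT5G28370, with the largest negative difference of that list, had 0.000113 and 0.583 FPKM in poly(A)+ against 19.9 and 11.3 FPKM in poly(A)-, and 98.1% of its windows recur elsewhere in the chromosomes, so reads may be shared with copies.

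Ribosomal proteins build the ribosomes of the cytosol, plastids and mitochondria. Of 311 of their genes tested outside the insertion, 56 were higher in poly(A)+ (18.0% against 10.5% of coding genes) and 3 were higher in poly(A)-. The median difference was 0.701 and the median length 1009 bases. Among all coding genes of 923 to 1149 bases, 19.4% were higher in poly(A)+ and the median was 0.97, so the list did not exceed genes of its length. After rescaling to a common median ratio the counts were 36 and 9. PRPL11, a plastid ribosomal protein, had 434 and 365 FPKM in poly(A)+ against 63.5 and 61.1 FPKM in poly(A)-, a log2 difference of 2.66 ± 0.18 (SE, limma adjusted p = 0.00162). AT5G27700, of the cytosolic S21e family, had 153 and 216 FPKM in poly(A)+ against 18.0 and 26.4 FPKM in poly(A)-. AT3G54210, an L17 family gene, had 557 and 592 FPKM in poly(A)+ against 140 and 99.5 FPKM in poly(A)-, and AT1G64510, an S6 family gene, had 386 and 366 FPKM in poly(A)+ against 112 and 98.5 FPKM in poly(A)-. The 3 on the other side were RP1 and the copies AT1G58983 and AT1G58684, whose values are identical in all 4 libraries, so their reads cannot be told apart.

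Photosystem subunits encoded in the nucleus had 8 of 21 higher in poly(A)+ (38.1% against 10.5% of all coding genes) and 0 higher in poly(A)-, with a median of 0.643. After rescaling 4 were called. The median length of the list was 994 bases. Among coding genes of 923 to 1149 bases, 19.4% were higher in poly(A)+ and the median was 0.97. PSAF, a docking site of plastocyanin on photosystem I, had 2518 and 1938 FPKM in poly(A)+ against 704 and 702 FPKM in poly(A)-, a log2 difference of 1.65 ± 0.22 (SE, limma adjusted p = 0.0099). PSAH1 had 1724 and 1597 FPKM in poly(A)+ against 343 and 517 FPKM in poly(A)-, PSAE2 had 2038 and 1716 FPKM in poly(A)+ against 561 and 645 FPKM in poly(A)-, and PSAL had 2878 and 2295 FPKM in poly(A)+ against 781 and 893 FPKM in poly(A)-, all with no overlap. PSBR, of photosystem II, ran the other way without passing the test, at 7021 and 5272 FPKM in poly(A)+ and 9137 and 9010 FPKM in poly(A)-.

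Light-harvesting genes, which encode the antenna proteins of chlorophyll, were present in both fractions. Of 20, 1 was higher in poly(A)+ (5% against 10.5% of all coding genes) and 0 were higher in poly(A)-, with a median of 0.326. LHCB2.3 had 770 and 783 FPKM in poly(A)+ against 181 and 245 FPKM in poly(A)-, a log2 difference of 1.87 ± 0.23. LHCB1.5 had 3357 and 2210 FPKM in poly(A)+ against 6146 and 5134 FPKM in poly(A)-, with a limma adjusted p of 0.0964. Of the 4 small subunit genes of Rubisco, RBCS1B was higher in poly(A)+, at 974 and 831 FPKM there against 326 and 307 FPKM in poly(A)-, whereas RBCS3B had 3612 and 3096 FPKM in poly(A)+ against 6700 and 5739 FPKM in poly(A)-, a difference of -0.89 that is under a fold of 2 and passes after rescaling. These are families of near-identical genes, and reads shared among copies make single members uncertain.

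**Figure D4:**
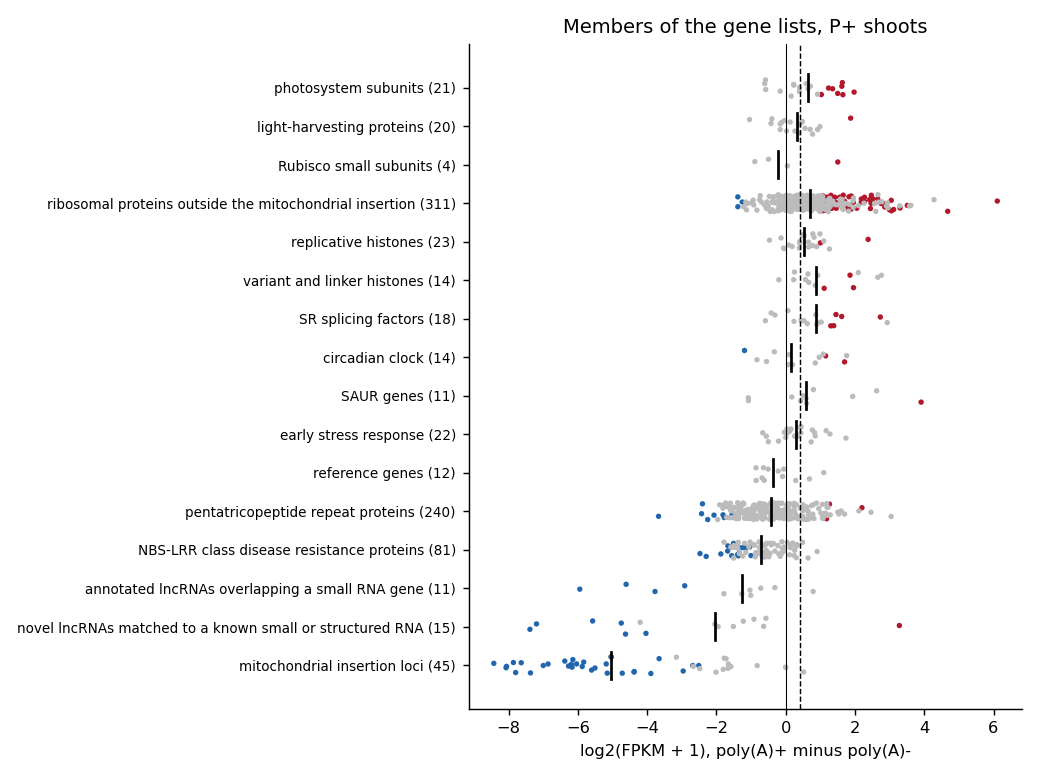
The log2(FPKM + 1) difference, poly(A)+ minus poly(A)-, of each tested member of 16 gene lists in P+ shoots, with the number of members in brackets. Red points were called higher in poly(A)+, blue points higher in poly(A)-, and grey points neither. Black bars mark list medians, which lie between 0.889 for variant and linker histones and -5.03 for the mitochondrial insertion, and the dashed line is the median of all features, 0.408.

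Histone mRNAs, which in animals lack a poly(A) tail when replication-dependent, were present in both fractions here, and in plants they are known to be polyadenylated. Of 23 replicative histone genes, 2 were higher in poly(A)+ (8.7% against 10.5% of all coding genes) and 0 were higher in poly(A)-, the median was 0.531, and after rescaling 0 were called. H4a had 73.3 and 63.2 FPKM in poly(A)+ against 37.5 and 29.9 FPKM in poly(A)-, and HTA13, an H2A gene, had 91.7 and 64.2 FPKM in poly(A)+ against 19.7 and 9.78 FPKM in poly(A)-. Of 14 variant and linker histone genes, 3 were higher in poly(A)+ (21.4%) and 0 in poly(A)-, with a median of 0.889. Median lengths were 785 bases for the replicative list and 953.5 bases for the variant and linker list. Among coding genes of 140 to 922 bases, 22.2% were higher in poly(A)+, and among those of 923 to 1149 bases 19.4%. HTA3, an H2A.X gene, had 63.3 and 46.3 FPKM in poly(A)+ against 15.9 and 12.7 FPKM in poly(A)-. HTA11, an H2A.Z gene, had 85.3 and 88.6 FPKM in poly(A)+ against 37.3 and 42.2 FPKM in poly(A)-, and the linker histone H1.3 had 53.9 and 38.1 FPKM in poly(A)+ against 7.68 and 15.4 FPKM in poly(A)-.

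SR proteins select splice sites, and many of their own mRNAs are alternatively spliced. Of 18 SR genes, 5 were higher in poly(A)+ (27.8% against 10.5% of all coding genes) and 0 were higher in poly(A)-, with a median of 0.881. RS31a had 36.3 and 36.6 FPKM in poly(A)+ against 3.10 and 6.74 FPKM in poly(A)-, a log2 difference of 2.73 ± 0.57 (SE, limma adjusted p = 0.0262). SR34a had 65.5 and 54.9 FPKM in poly(A)+ against 12.9 and 27.3 FPKM in poly(A)-, RS2Z32 had 103 and 98.9 FPKM in poly(A)+ against 32.7 and 49.9 FPKM in poly(A)-, and SCL30A had 29.2 and 24.5 FPKM in poly(A)+ against 9.36 and 9.86 FPKM in poly(A)-. SR30 was the remaining call. The median length of the list was 1726 bases, and 9.39% of coding genes of 1549 to 1744 bases were higher in poly(A)+.

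Clock genes time daily rhythms. Of 14, 2 were higher in poly(A)+ (14.3% against 10.5% of all coding genes) and 1 was higher in poly(A)- (7.14% against 3.36%), and after rescaling 1 and 2 were called. GRP7, an RNA-binding protein of a slave oscillator, had 2138 and 2292 FPKM in poly(A)+ against 533 and 870 FPKM in poly(A)-, and PRR7, a repressor of morning genes, had 166 and 181 FPKM in poly(A)+ against 77.2 and 77.5 FPKM in poly(A)-. LUX, the DNA-binding part of the evening complex, had 58.1 and 54.1 FPKM in poly(A)+ against 128 and 130 FPKM in poly(A)-, a log2 difference of -1.19 ± 0.17 (SE, limma adjusted p = 0.0112). None of 22 early stress genes was called by limma, 2 of them having an unadjusted p under 0.05, and their median was 0.31. TCH4, a touch-induced cell wall enzyme, had 2192 and 1753 FPKM in poly(A)+ and 2062 and 1768 FPKM in poly(A)-. Of 11 SAUR genes, small auxin-induced mRNAs known for rapid decay, SAUR24 alone was called (9.09% against 10.5% of all coding genes). It had 13.8 and 14.3 FPKM in poly(A)+ and was listed at 0 in both poly(A)- libraries. There 1 fragment would be worth 8.77 and 6.86 FPKM, so its poly(A)+ mean lies below 3 fragments in the deeper library. A difference is not detectable at that depth. None of 12 reference genes was called by limma, 5 of them having an unadjusted p under 0.05, and their median was -0.359, while after rescaling 2 were higher in poly(A)-. PP2AA3, a phosphatase subunit used as a reference in qPCR, had 48.3 and 57.6 FPKM in poly(A)+ and 91.2 and 102 FPKM in poly(A)-.

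Features listed at 0 in both poly(A)- libraries made up 490 of the 2038 calls on the poly(A)+ side, and for these no fold is given. Of 485 with a length, 201 had a poly(A)+ mean above the level that 3 fragments would give in the deeper poly(A)- library by the estimate from low values, and 284 lay at or below it, where a difference is not detectable at that depth. RCI2B, a small membrane protein induced by cold and salt, had 81.6 and 83.8 FPKM in poly(A)+, and 1 fragment would be worth 5 and 3.91 FPKM in the poly(A)- libraries. AT5G24620, a thaumatin-like pathogenesis-related gene, had 70.7 and 62.2 FPKM in poly(A)+ with a fragment worth 1.94 and 1.52 FPKM in poly(A)-. AT5G09830, a BolA-like gene, had 66.9 and 108 FPKM, and AT1G57540, annotated as a ribosomal protein of the small subunit, had 51.6 and 89.6 FPKM in poly(A)+. AT1G22885, AT3G02120 and AT5G35480 were likewise at 0 in poly(A)-, and AT1G24996 had 180 and 75.6 FPKM in poly(A)+ against 0 and 0.0617 FPKM in poly(A)-.

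Annotated lncRNAs were called on the poly(A)+ side in 59 of 324 cases (18.2%) and on the poly(A)- side in 7 (2.16%). Of the 59, 34 were at 0 in both poly(A)- libraries. AT1G25175 had 276 and 306 FPKM in poly(A)+ against 5.66 and 0 FPKM in poly(A)-. AT4G36808, on the strand opposite AT4G36810, had 104 and 140 FPKM in poly(A)+ against 3.42e-05 and 0.000387 FPKM in poly(A)-. AT4G04223 and AT4G08035 were at 0 in both poly(A)- libraries, with 62.6 and 48.7 FPKM and with 34.7 and 45 FPKM in poly(A)+. In poly(A)-, 1 fragment would be worth 22.2 and 17.3 FPKM on AT4G04223, and 4.45 and 3.48 FPKM on AT4G08035. The poly(A)+ mean of AT4G04223 thus lies near the level of 3 fragments in the deeper poly(A)- library. On the other side, AT3G59068, on the strand opposite AT3G59070, had 17.8 and 24.7 FPKM in poly(A)+ against 266 and 358 FPKM in poly(A)-. Single-exon transcripts were 7 of the 59 (11.9%), 93 of the 258 not called (36.0%) and 6 of the 7 on the poly(A)- side (85.7%).

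Assembled lncRNAs were called in 63 of 825 cases on the poly(A)+ side (7.64%) and in 27 on the poly(A)- side (3.27%). The leading poly(A)+ members were short single-exon transcripts. Those named here leave too little length for the worth of a fragment to be given. Whether their differences are detectable at the depth of the poly(A)- libraries was therefore not tested. XLOC_010578, 305 bases on chromosome 2, had 312 and 94.5 FPKM in poly(A)+ against 0.0227 and 0.000957 FPKM in poly(A)-. XLOC_000951, 283 bases on chromosome 1, had 803 and 346 FPKM in poly(A)+ against 36.3 and 0.320 FPKM in poly(A)-, and the replicates of either fraction lay far apart. XLOC_012884 had 97.8 and 35.6 FPKM in poly(A)+ against 0.0118 and 0.0137 FPKM in poly(A)-, and XLOC_001290 had 41.8 and 66.7 FPKM in poly(A)+ against 0.429 and 0.0121 FPKM in poly(A)-. XLOC_004039 on chromosome 1 had 0 and 1.96 FPKM in poly(A)+ against 66.2 and 101 FPKM in poly(A)-.

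Known lncRNAs were fixed as a list of their own, and 1 of the 11 transcripts tested was called (9.09% against 10.5% of all features). It was the first transcript of GUT15, a conserved unstable RNA, with 183 and 215 FPKM in poly(A)+ against 30.5 and 33.9 FPKM in poly(A)- (log2 difference 2.59 ± 0.37, SE, limma adjusted p = 0.0107). Its second transcript had 23.1 and 8.13 FPKM in poly(A)+ against 12.4 and 31.7 FPKM in poly(A)-. The trans-acting siRNA precursors, which are cut by a microRNA and copied into double strands, were not called. TAS1C had 17.2 and 19.3 FPKM in poly(A)+ and 46.2 and 29.8 FPKM in poly(A)-, TAS2 had 23.7 and 31.4 FPKM in poly(A)+ against 20.4 and 32.6 FPKM in poly(A)-, and the longer TAS3A transcript had 94.7 and 64.1 FPKM in poly(A)+ against 37.8 and 16.3 FPKM in poly(A)-. IPS1, a phosphate-starvation RNA that captures miR399, had 1.02 and 1.87 FPKM in poly(A)+ and 37.7 and 0 FPKM in poly(A)-. Its relative AT4 had 7.81 and 11.5 FPKM in poly(A)+ and 13.5 and 9.88 FPKM in poly(A)-.

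By the fold of group means alone, with no test, features were classed as poly(A)+ at a ratio of 2 or more, as poly(A)- at 0.5 or less and as bimorphic in between. Of 21162 coding genes with at least 0.1 FPKM somewhere in the series, 36.6% were poly(A)+ (95% Wilson interval 35.9 to 37.2%), 52.4% were bimorphic and 11% were poly(A)-. Of 407 annotated lncRNAs, 57.7% were poly(A)+ (52.9 to 62.4%), 26.8% bimorphic and 15.5% poly(A)-. Of 1080 assembled lncRNAs, 51.7% were poly(A)+ (48.7 to 54.6%), 25.8% bimorphic and 22.5% poly(A)-. Among the assembled ones the poly(A)+ share was 49.1% of 906 antisense transcripts, 64.4% of 73 intergenic ones, 72.5% of 51 close to a gene and 58.0% of 50 over pseudogenes. Intervals cover counting error over features only.

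The class of a single feature was often not shared by the replicates. When each replicate pair was classed on its own, 65.2% of 19743 coding genes, 57.3% of 365 annotated lncRNAs and 54.1% of 975 assembled lncRNAs fell into the same class, and 977, 52 and 196 fell into opposite ones. At a mean of 10 FPKM or more the shared shares were 70.4%, 46.9% and 51.0%.

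AATAAA, the canonical poly(A) signal, stood in the last 50 bases of 9.72% of coding genes higher in poly(A)+, of 10.1% of those not called and of 8.82% of those higher in poly(A)-, beside 9.76% of all 28360 features with a position.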

How the data were processed

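The authors mapped reads to TAIR10 with TopHat (TopHat2 in the submitters' processing notes), removed organelle reads, assembled transcripts with Cufflinks and estimated the deposited FPKM values per transcript and library with eXpress. The versions are not given in the sources used here. The labels give a first-strand setting for replicate 1 and an unstranded one for replicate 2 of the shoots, although a strand-specific protocol is described. Tables of the authors' P- over P+ fold changes and p-values, from DESeq2, were not used, nor were mapped-read totals. The assembled lncRNAs' coordinates, the remaining deposited values, start at 0 (1208 of 1351 introns show GT-AG ends when read so, 0 otherwise), and 1 was added to each start.

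FPKM of a coding gene were summed over its transcripts, and lncRNAs were kept as single transcripts. limma 3.58.1 in R 4.3.3 fitted log2(FPKM + 1) over the 8 shoot libraries with 4 group means and variances moderated along the mean, for features with a mean of 1 FPKM or more. The P- shoots served only to estimate the spread. All p-values are two-sided and adjusted after Benjamini and Hochberg over 19444 features. Replicates are called biological in the study, and p-values measure only the spread between these samples. The calls were tested on simulated data. The fragments per library were estimated from the steps between low values, with 300 bases taken off each length, and this estimate and its floors cover counting error only. Sequences and positions are from RefSeq TAIR10.1, whose chromosomes are those of TAIR10.

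Members and gene lists were chosen with earlier results of these data known. Named features are, among calls without overlap between the fractions, the 8 coding genes per direction with the largest difference and 10 FPKM or more in the higher fraction, the 4 annotated and 4 assembled lncRNAs per direction with 2 FPKM or more, up to 4 members per list by adjusted p, and all known lncRNAs. Other genes were named after their values were seen. The ribosomal protein list took every product so named, cytosolic or organellar. Alternatives were another added value, filter, set of libraries or scaling, no trend, a replicate block and single libraries left out. A filter at 10 fragments, the loci without the insertion and weights by fraction were added after seeing the data.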

Additional observations from a re-analysis of the deposited data

How the results depend on the processing

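No called feature turned its direction under the settings in which all calls were compared. A fit of single transcripts in place of gene sums was compared only for the 82 named features, of which 0 reversed. Counts below are for calls higher in poly(A)+ and then in poly(A)-. The 4 P+ shoot libraries alone gave 1701 and 406 of all features. A filter at a mean level worth 10 fragments, chosen after seeing the data, gave 1186 and 680 calls, with 6 and 3 among annotated lncRNAs and 2 and 13 among assembled ones. A mean of 5 FPKM or more left 32 annotated and 40 assembled lncRNAs higher in poly(A)+, and no filter left 4 annotated lncRNAs higher in poly(A)-. With 1 library left out, where the lone library is assumed to vary like the other groups, counts ranged between 19 and 2761 and between 22 and 684 over all features, between 0 and 65 and between 1 and 14 for annotated lncRNAs, and between 1 and 80 and between 3 and 36 for assembled lncRNAs. The cause of the low counts without a poly(A)+ library was not tested.

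The labels do not say that same-numbered fractions share RNA, and the correlation of their replicate differences was 0.0893. With a replicate block, 2079 and 621 features were called, 1848 and 576 of them shared with the fit without it. Of the 82 named features, 10 known lncRNAs had no call to lose, and none of the others lost its call. Without a poly(A)+ library 52 and 54 of them did.

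Rescaling moved the classes of coding genes to 32.1% poly(A)+ and 14.6% poly(A)-, and those of annotated lncRNAs to 54.8% and 18.7%. At a mean of 1 FPKM or more the poly(A)+, bimorphic and poly(A)- shares were 27.8, 60.9 and 11.3% of coding genes, 48.6, 32.9 and 18.5% of annotated lncRNAs and 37.4, 34.9 and 27.7% of assembled lncRNAs. With 1 library left out, the shares ranged over 32.7 to 43.9%, 45.3 to 54.7% and 10.9 to 12.6% of coding genes, 54.2 to 67.2%, 16.7 to 26.0% and 14 to 20.0% of annotated lncRNAs, and 46.8 to 63.1%, 16.2 to 27.8% and 20.6 to 31.0% of assembled lncRNAs. Coding genes listed at 0 numbered 7256 and 6387 in the poly(A)+ libraries against 11334 and 10552 in the poly(A)- libraries, and the part of depth in this was not tested.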
